A study of Mus musculus with 6 samples.

Results

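The Egr, Nr4a and Klf transcription factors described here are 9 genes of the 32285 in the features files, chosen by symbol: Egr1, Egr2, Egr3, Nr4a1, Nr4a2, Nr4a3, Klf2, Klf4 and Klf6. The study picked Egr1, Nr4a1 and Klf4 on these same samples, so their direction is not independent evidence. Single-cell RNA profiles had been made of CD11b+ cells of C57Bl/6 mice aged 2 months, in 3 libraries of mandible and 3 of femur marrow. CD11b is an integrin subunit of neutrophils, monocytes and macrophages, and the cells had been enriched for it on magnetic beads. No animal carried a transgene or received a treatment according to the labels. Femur replicate 1 was female and the other 5 libraries were male. The labels add tibiae to the femur group while the study's methods name femurs alone, mandibular marrow was taken after removal of the molars, and the number of mice per library was not given, so p-values measure the spread between these libraries.

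Of 74091 barcodes, 69776 cells had been kept by the authors, from 7763 to 22797 per library, with 82962160 to 244946998 unique molecular identifiers (UMIs, which count captured transcripts) per library. Any 2 libraries shared 15 to 70 kept barcodes, at most 0.651% of the smaller library. The authors' clusters 0, 1, 2, 3, 4, 7 and 8 held 87.6% to 100% cells with the ImmGen reference label of neutrophils, and 85.0% of cluster 6 was labelled B cells. Cluster 5, with 952 to 1443 cells per library, was 50.8% monocytes, 34.4% neutrophils, 6.55% macrophages and 2.37% dendritic cells by label. Levels are counts of a gene scaled to a fixed total of UMIs in the summed cells (CPM), and each library is 1 replicate. Fewer cells of a type and less RNA per cell cannot be told apart in such sums. Femur replicate 3 was the largest library and stood apart in the genes described here, which is shown before the comparison of sites.

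Egr1, Egr2 and Egr3 encode zinc finger activators, and Nr4a1, Nr4a2 and Nr4a3 encode orphan nuclear receptors. Most of them are immediate early genes, which a stimulus induces within minutes through factors already present in the cell, such as CREB at cyclic AMP response elements and serum response factor at CArG boxes. Egr1 and Egr2 act in macrophage differentiation, Nr4a1 is needed for Ly6C-low monocytes, Klf4 is needed for monocyte formation, and Klf2 restrains inflammatory activation of myeloid cells. Klf6 is a broadly expressed member of the Klf family. Handling and enzymatic or mechanical dissociation of tissue are also known inducers of immediate early genes.

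Promoter sequences are shown for the members that carry the letters CREB reads, since the shared sequence was not used to choose them. RefSeq promoter sequences of build GRCm38.p6 were found for 7 of the 9 genes. None was found for Egr1 and Egr3, so these were not searched for any motif. For the 7 genes, the 250 bases before every listed start were searched on both strands for the half-site TGACG, read as CGTCA on the other strand. A half-site was present in 6 of the 7 members and in 19.8% of the 27025 genes in that table. A CArG box was present in 1 of the 7, Egr2, and in 1.62% of all genes, and the GC box GGGCGG in 7 of 7 and in 35.4%. The genes compared were not matched for base content or for the number of starts, and Egr2 had several. These shares are therefore no test of enrichment. The CArG box and the half-sites do not overlap in the sequence shown. The sequences below run 5′ to 3′ on the coding strand, from upstream bases outside every annotated exon, with half-sites and the CArG box in capitals.
Egr2, chr10:67537748-67537828, plus strand: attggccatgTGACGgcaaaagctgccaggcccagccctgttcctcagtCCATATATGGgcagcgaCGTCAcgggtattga
Nr4a1, chr15:101266603-101266820, plus strand: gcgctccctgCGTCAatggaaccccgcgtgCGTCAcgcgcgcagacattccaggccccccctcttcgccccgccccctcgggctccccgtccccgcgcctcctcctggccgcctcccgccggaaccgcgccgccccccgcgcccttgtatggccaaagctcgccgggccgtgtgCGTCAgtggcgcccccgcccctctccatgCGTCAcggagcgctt
Nr4a2, chr2:57124100-57124213, minus strand: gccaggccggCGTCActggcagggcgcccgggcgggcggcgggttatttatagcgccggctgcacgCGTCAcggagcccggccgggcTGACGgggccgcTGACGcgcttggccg
Nr4a3, chr4:48045064-48045114, plus strand: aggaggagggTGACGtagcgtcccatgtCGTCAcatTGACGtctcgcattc
Klf2, chr8:72318812-72318835, plus strand: ctggtttgtTGACGccgtcgccat
Klf4, chr4:55532693-55532717, minus strand: gcctggctggCGTCAcggcctggcc

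The windows of Nr4a1 and Nr4a2 each held 4 half-sites, that of Nr4a3 held 3, that of Egr2 held 2 beside its CArG box, and those of Klf2 and Klf4 held 1 each. A match describes letters and not binding. In the gene annotation of build mm10, no other gene overlapped any of the 9 genes. Egr1 lies at chr18:34859823-34864984, Egr2 at chr10:67535475-67542188, Egr3 at chr14:70077203-70082614, Nr4a1 at chr15:101254269-101274795, Nr4a3 at chr4:48045153-48086447, Klf2 at chr8:72319033-72321656 and Klf6 at chr13:5861482-5870394, all on the plus strand. Nr4a2 at chr2:57106830-57124003 and Klf4 at chr4:55527143-55532466 lie on the minus strand.

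The 9 genes fell into different places among the clusters. Egr1, Egr2, Egr3, Nr4a3 and Klf6 had their highest mean level in the neutrophil cluster 1, Nr4a1, Nr4a2 and Klf4 in cluster 5, and Klf2 in the B cell cluster 6. Because the authors clustered these same cells, the levels across clusters are a description without a test. Cluster 1 was the highest for Egr1 in 6 of 6 libraries, at 1188 CPM ± 620 (SD, n = 6), with a range of 281 to 2188 CPM. Clusters 7 and 2 followed at 712 ± 354 and 660 ± 415 CPM, and their ranges overlapped with that of cluster 1 and with each other. The lowest Egr1 level was that of cluster 4, at 74.5 ± 28.7 CPM, and every neighbouring pair in the order of the 9 clusters overlapped.

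**Figure D1:**
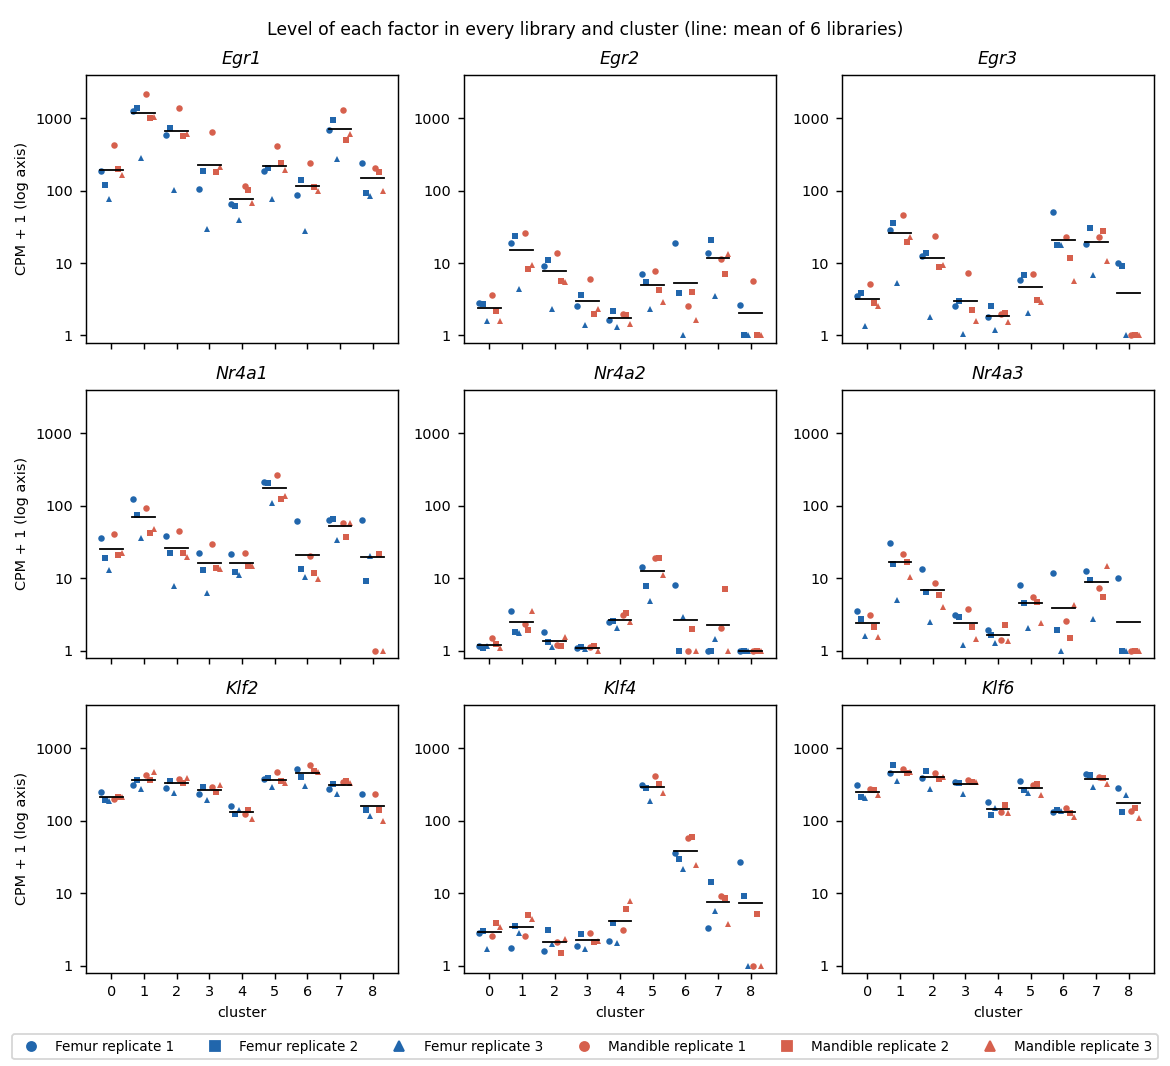
CPM plus 1 on a log axis for each of the 9 genes in clusters 0 to 8, with 1 point per library, blue for femur and red for mandible, the replicate as a circle, square or triangle, and a line at the mean of 6 libraries. Klf4 sits between 185 and 419 CPM in cluster 5 and at most 6.67 CPM in clusters 0 to 4, whereas Klf2 and Klf6 are present in every cluster.

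Klf4 was the member most restricted to 1 cluster. It measured 294 ± 78.7 CPM (SD, n = 6) in cluster 5 with a lowest library of 185 CPM, and 37.1 ± 16.6 CPM in cluster 6 with a highest library of 58.1 CPM, so these neighbours did not overlap. Cluster 6 in turn did not overlap with cluster 7, at 6.48 ± 4.17 CPM. With each cell thinned to 1000 UMIs, 23.7% of cluster 5 cells had a Klf4 UMI, against 0.11% to 0.28% in the means of neutrophil clusters 0 to 4. As counted, the shares were 71.5% in cluster 5 and 0.68% to 3.16% in those clusters. RNA free in the droplets was not measured, and its part in these low shares was not tested. Median UMIs per cell lay between 9031 and 10716 in the libraries of cluster 5 and between 3827 and 23203 in those of clusters 0 to 4.

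Nr4a1, the receptor that Ly6C-low monocytes depend on, measured 174 ± 62.6 CPM in cluster 5 and 68.4 ± 33.9 CPM in cluster 1, and cluster 5 was the highest in 6 of 6 libraries although the ranges overlapped. Nr4a2 measured 11.6 ± 5.81 CPM in cluster 5 and at most 1.65 CPM in the mean of any other cluster, with 0 UMIs in cluster 8. Cluster 5 was again the highest in 6 of 6 libraries. Nr4a3 differed from its relatives, with 15.5 ± 8.75 CPM in cluster 1, 7.72 ± 4.53 CPM in cluster 7 and 3.52 ± 2.21 CPM in cluster 5. Egr2 was similar, with 14.1 ± 8.95 CPM in cluster 1 and 3.99 ± 2.22 CPM in cluster 5. Egr3 measured 25.3 ± 14.2 CPM in cluster 1 and 20.1 ± 15.6 CPM in the B cell cluster 6, ranges that overlapped, and cluster 1 was its highest in only 3 of 6 libraries.

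Klf2 and Klf6 were present throughout at levels that differed far less between clusters. Klf2 ranged from a mean of 130 ± 18.1 CPM in cluster 4 to 460 ± 102 CPM in cluster 6, with cluster 5 at 366 ± 59.1 CPM, and cluster 6 was the highest in 6 of 6 libraries. Klf6 ranged from 132 ± 13.5 CPM in cluster 6 to 474 ± 77.3 CPM in cluster 1. The 2 genes therefore stood at opposite ends of their order in cluster 6, the B cell cluster.

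The genes most like each member were sought by Pearson correlation of log2(CPM + 1) over 48 sums, those of clusters 0 to 7 in 6 libraries, among 7105 genes with a mean of at least 10 CPM. These sums share libraries and depth, so the values are a description. Klf4 was nearest to Ms4a4c (r = 0.97), Pld4 (0.97) and Ahnak (0.97). Klf6 was nearest to Cd44 (r = 0.96), Rab8b (0.95) and Wdfy3 (0.95), and Klf2 to Tec (0.92), Serp1 (0.91) and Jund (0.91). Egr1 was nearest to Etf1 (r = 0.92) and Ccnl1 (0.91). Homer1 and Nfkbid were among the nearest 3 genes of both Egr2 (r = 0.86 and 0.86) and Egr3 (0.85 and 0.84), with Gm16093 (0.84) beside them for Egr3. Nr4a1 was nearest to Etv6 (r = 0.88), Ern1 (0.88) and Mapkapk2 (0.85), Nr4a2 to Stx12 (0.85), F13a1 (0.82) and Leprot (0.82), and Nr4a3 to Spag9 (0.87), Arih2 (0.87) and Dclre1c (0.86). Among the members themselves, Egr2 and Nr4a3 had the highest correlation, at r = 0.92, and Klf4 was weakly related to Egr1 (r = -0.145) and Nr4a3 (r = -0.03).

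Within the clusters the same 2 libraries mostly stood at the ends of the range for Egr1, Egr2 and Egr3. Egr1 was lowest in femur replicate 3 and highest in mandible replicate 1 in 8 of 8 clusters (0 to 7). In cluster 1 its level was 1263, 1369 and 281 CPM in femur replicates 1 to 3 and 2188, 1003 and 1022 CPM in mandible replicates 1 to 3. Femur replicate 3 was also the lowest library in 8 of 8 clusters for Egr2 and in 7 of 8 for Egr3, Nr4a1, Nr4a3 and Klf2, but in 5 of 8 for Klf4 and Klf6 and 4 of 8 for Nr4a2. The median over these clusters of log2(CPM + 1), less the mean of 6 libraries, was -1.60 for Egr1, -1.24 for Egr2, -1.18 for Egr3 and -1.11 for Nr4a3 in femur replicate 3. It was -0.40 for Klf2 and -0.33 for Klf6 in the same library. In mandible replicate 1 the median was 1.20 for Egr1, 0.73 for Egr2 and 0.77 for Egr3.

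**Figure D2:**
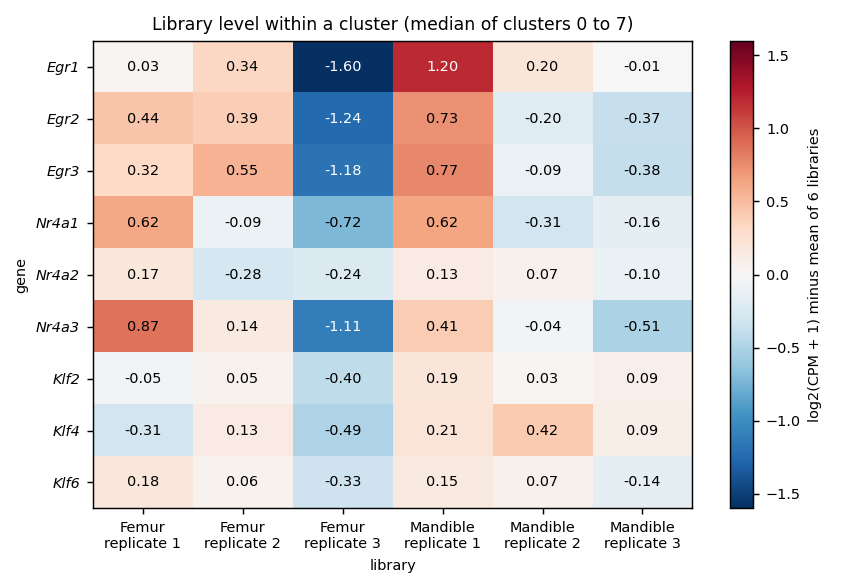
Each tile gives log2(CPM + 1) of a gene (rows) in a library (columns) less the mean of the 6 libraries, as the median over clusters 0 to 7. Femur replicate 3 is the darkest blue column, at -1.60 for Egr1, and mandible replicate 1 the reddest for Egr1, at 1.20.

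Femur replicate 3 was also the largest library and had the lowest median mitochondrial share in 8 of 8 of the clusters 0 to 7, for example 1.08% in cluster 5 against 1.62% to 2.18% in the other libraries. The part of these features in the level of the members was not tested. Of the 22 other genes listed as immediate early partners (the Fos, Jun and Ier families and others), 12 were lowest in femur replicate 3 in cluster 5. In mandible replicate 1, 13 of the 22 were highest. The same counts over all genes were not made, so these are not shown to be particular to the list.

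The comparison of sites asked whether the factors differed between mandible and femur in cluster 5, which held most of the labelled monocytes and macrophages beside labelled neutrophils. None of the 9 members passed the test there (edgeR quasi-likelihood, adjusted p under 0.05 over 13765 genes), where 0% of all genes passed. By unadjusted p under 0.05 the count was 1 of 9, against 7.11% of all genes, and DESeq2 called 0 members and 0.332% of all genes. In direction, 5 members were higher in the mandible and 4 lower, and no member had libraries of the 2 sites that did not overlap, against 7.32% of all genes whose mandible libraries were all higher.

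Nr4a2 measured 13.3, 6.78 and 3.88 CPM in femur replicates 1 to 3 and 18.1, 17.8 and 10.0 CPM in mandible replicates 1 to 3. Mandible replicate 3 lay below femur replicate 1, so the sites overlapped, and the log2 fold change of mandible over femur was 0.97 (SE 0.39, edgeR adjusted p = 0.687). Egr1 measured 186, 206 and 75.2 CPM in femur libraries against 412, 238 and 192 CPM in mandible libraries. Mandible replicate 3 and femur replicate 2 were the pair that overlapped, and the log2 fold change was 0.85 (SE 0.37, edgeR adjusted p = 0.708). Without femur replicate 3 it was 0.56 and without mandible replicate 1 it was 0.48, so the size of the Egr1 difference depended on these libraries.

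Klf4, which monocytes require to form, measured 306, 285 and 185 CPM in femur libraries against 419, 324 and 243 CPM in mandible libraries. Its log2 fold change was 0.33 (SE 0.22, edgeR adjusted p = 0.773), the libraries of the sites overlapped, and with 1 library left out it lay between 0.128 (without mandible replicate 1) and 0.516 (without mandible replicate 3). Nr4a1 measured 210, 207 and 107 CPM in femur libraries against 265, 121 and 134 CPM in mandible libraries. The highest and the lowest Nr4a1 library were thus not of 1 site, and the log2 fold change was -0.03 (SE 0.32). Klf2 and Klf6 differed by 0.09 (SE 0.16) and -0.03 (SE 0.18) on the log2 scale. The scarce members Egr2, Egr3 and Nr4a3, with site means of 3.14 to 4.004 CPM, gave 0.03 (SE 0.58), -0.25 (SE 0.64) and -0.27 (SE 0.63).

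**Figure D3:**
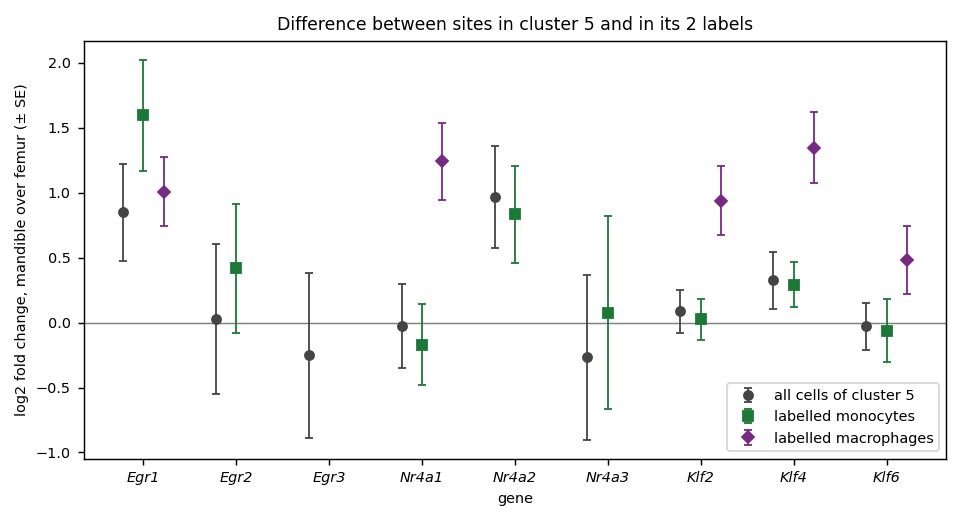
Log2 fold change of mandible over femur with its SE from edgeR for each gene in all cells of cluster 5 (circles) and in its labelled monocytes (squares) and macrophages (diamonds), with genes under the filter on low counts left out. Egr1 lies above 0 in all 3, Nr4a1 is at 1.24 in macrophages and at -0.17 in monocytes, and no point passed the test.

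The share of cells with a UMI was also compared, at 1000 UMIs per cell, which kept 7317 of the 7354 cells of cluster 5. For Egr1 it was 10.1% ± 3.96 (SD, n = 3) in femur libraries against 19.98% ± 5.75 in mandible libraries. The sites did not overlap and differed by 9.85 percentage points, with a 2-sided exact permutation p of 0.10, the smallest that 3 against 3 libraries allow, and 0.60 after Benjamini-Hochberg adjustment over 9 members. Egr1 was the 1 member of 9 without overlap, and 9.26% of all genes tested had shares that were higher in every mandible library at this depth (8.62% as counted). The share with Klf4 was 20.6% ± 2.40 in femur libraries against 26.9% ± 5.31 in mandible libraries (exact permutation p = 0.20, adjusted 0.60). The difference in the Klf4 share was 6.26 percentage points, and with 1 library left out it lay between 3.53 (without mandible replicate 1) and 8.84 (without mandible replicate 3). The share with Nr4a2 was 0.837% ± 0.504 and 1.69% ± 0.515 (exact permutation p = 0.20, adjusted 0.60). The other 6 members had adjusted exact permutation p-values of 0.675 to 0.90.

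Several marker lists moved with the site in cluster 5. The summed level of 3 erythroid markers was 140 to 545 CPM in femur libraries against 578 to 1282 CPM in mandible libraries, that of 7 connective, bone and tooth markers 25.5 to 33.9 and 114 to 1733 CPM, and that of 5 B lineage markers 10.2 to 13.9 and 20.4 to 72.5 CPM. Dendritic cell markers, 8 in number, were lower in the mandible, at 1591 to 2595 CPM against 2815 to 4454 CPM. They were Flt3, Cd209a, H2-Aa, Cd74, Siglech, Xcr1, Bst2 and Irf8. Their sum was 1661 to 4746 CPM in the B cell cluster 6, and Irf8 is also in the Ly6C-high list below. The list therefore does not mark dendritic cells alone, here or in the labels. The sums of 9 neutrophil markers overlapped, at 68061 to 184250 CPM in femur libraries against 82022 to 117010 CPM in mandible libraries. All markers of these 5 lists were detected, and their part in the results was not tested.

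Labels within cluster 5 were then compared one by one, and 0 of 27 member tests passed (edgeR adjusted p under 0.05), with 6 of 27 at an unadjusted p under 0.05, all higher in the mandible, and 0 called by DESeq2. Over all gene tests of the 4 labels, 8.23% had an unadjusted p under 0.05 and DESeq2 called 0.506%. Of all genes, 0.0968% passed among labelled monocytes, 0.0445% among macrophages, 0.0603% among neutrophils and 0.0223% among dendritic cells. Monocyte and macrophage markers differed between these labels. Labelled monocytes had 4560 to 5771 CPM of the 5 monocyte markers against 1386 to 1993 CPM in labelled macrophages, which in turn had 10761 to 19064 CPM of the 7 macrophage markers against 384 to 769 CPM. Both labels also held neutrophil markers, at 7920 to 33326 CPM in monocytes and 4782 to 24286 CPM in macrophages.

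In labelled monocytes, 488 to 772 cells per library, Egr1 measured 47.6, 118 and 34.6 CPM in femur replicates 1 to 3 and 283, 205 and 131 CPM in mandible replicates 1 to 3. Every mandible library was above every femur library, which held for 10.6% of all genes in these cells and for 1 of the 8 members tested. The log2 fold change was 1.60 (SE 0.43, edgeR adjusted p = 0.148). With 1 library left out it lay between 1.298 (without femur replicate 3) and 2.318 (without femur replicate 2). Nr4a2 differed by 0.83 (SE 0.37) with overlap. Of the other members, Egr3 did not pass the filter on low counts, and the log2 differences were smaller in size than that of Nr4a2, with Egr2 at 0.42 (SE 0.50), Nr4a3 at 0.08 (SE 0.74), Klf4 at 0.29 (SE 0.17), Nr4a1 at -0.17 (SE 0.31), Klf2 at 0.03 (SE 0.16) and Klf6 at -0.06 (SE 0.24). As in cluster 5, dendritic cell markers were lower in the mandible (1424 to 2334 against 3306 to 4668 CPM), and macrophage markers were too (384 to 579 against 665 to 769 CPM). Monocyte markers were higher (5580 to 5771 against 4560 to 5471 CPM), as were the connective, bone and tooth markers (14.8 to 34.0 against 0.813 to 2.15 CPM, Dmp1 at 0). Their part was not tested.

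Labelled macrophages were few, 46 to 167 cells per library, and all 5 members that passed the filter on low counts were higher in the mandible. For 4 of these 5 the libraries of the sites did not overlap, a pattern shown by 10.0% of all genes in these cells, although the filter may have kept the members that were high in 1 site. Klf4 measured 51.1, 63.6 and 39.7 CPM in femur replicates 1 to 3 and 153, 176 and 95.0 CPM in mandible replicates 1 to 3. Its log2 fold change was 1.35 (SE 0.27, edgeR adjusted p = 0.145). Nr4a1 measured 36.5, 26.4 and 17.7 CPM in femur libraries against 68.7, 77.5 and 69.1 CPM in mandible libraries. Its log2 fold change was 1.24 (SE 0.30, edgeR adjusted p = 0.264).

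Egr1 and Klf2 completed the group. Egr1 measured 95.0, 66.7 and 102 CPM in femur libraries against 159, 267 and 147 CPM in mandible libraries, a log2 difference of 1.01 (SE 0.26, edgeR adjusted p = 0.374). Klf2 measured 101, 116 and 102 CPM in femur libraries against 224, 301 and 132 CPM in mandible libraries, a log2 difference of 0.94 (SE 0.27, edgeR adjusted p = 0.467). Mandible replicate 2 was the highest library for Egr1, Klf2, Klf4 and Nr4a1. Klf6 overlapped between sites and differed by 0.48 (SE 0.26), or by 0.16 without mandible replicate 2. Femur replicate 3 was the highest of the femur libraries for Egr1 in these cells, whereas in the sums of cluster 5 it was the lowest of all.

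**Figure D4:**
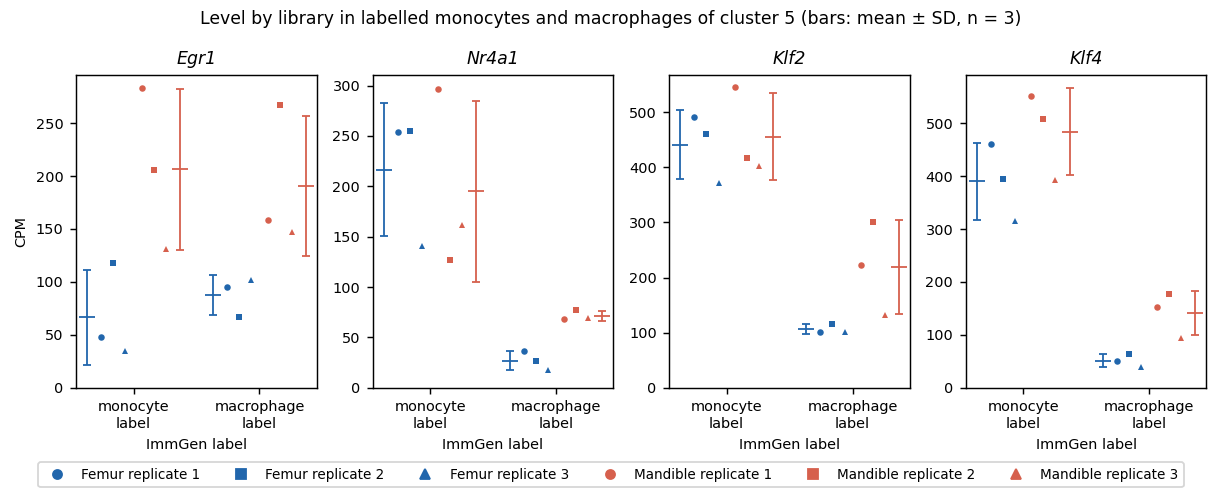
CPM of 4 genes by library in labelled monocytes and labelled macrophages of cluster 5, on a linear axis from 0, with the mean and SD of 3 libraries per site. In macrophages every mandible library is above every femur library for these 4 genes, as for 10.0% of all genes there. They are the 4 of 5 tested members with that pattern, and Klf6, which overlapped, is not shown. In monocytes it holds for Egr1 alone of the 4 genes shown, and for 10.6% of all genes.

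The 7 macrophage markers of these cells summed to 10761 to 19064 CPM in femur libraries against 15765 to 18347 CPM in mandible libraries, so the sites overlapped, and all 7 were detected. Dendritic cell markers were again lower in the mandible, at 5212 to 7402 CPM against 8366 to 11613 CPM. Median UMIs per cell were 2811 to 6495 in femur libraries against 3363 to 4333 in mandible libraries. The part of the dendritic cell markers in the macrophage values was not tested. In labelled dendritic cells, 16 to 40 per library, Klf4 measured 136 to 252 CPM in femur libraries against 258 to 361 CPM in mandible libraries without overlap, as did 8.21% of all genes there, a log2 difference of 0.69 (SE 0.30, edgeR adjusted p = 0.714). Other markers moved with the site in the labelled dendritic cells without overlap, and their part was not tested. The neutrophil markers were at 5231 to 22241 CPM in the femur against 2710 to 3525 CPM, the B lineage markers at 3.43 to 16.0 against 200 to 365 CPM, and the connective, bone and tooth markers at 0 to 7.98 against 10.8 to 23.3 CPM, with Sparc, Dcn, Ambn and Dmp1 at 0.

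Among neutrophil-labelled cells of cluster 5, 230 to 717 per library, no member had a log2 fold change past the test, and Egr1 differed by 0.57 (SE 0.48) with 91.0 to 422 CPM in femur libraries against 262 to 649 CPM in mandible libraries. Klf4 was at 136 to 229 CPM in femur libraries against 153 to 265 CPM in mandible libraries, above every library of the neutrophil clusters 0 to 4. These cells had 1608 to 2329 CPM of the monocyte markers, against 747 to 1154 CPM in the libraries of clusters 0, 3 and 4. They also held 1.62e+05 CPM or more of the 9 neutrophil markers. Between the sites, erythroid markers were at 60.0 to 233 against 1076 to 1883 CPM in these cells, connective, bone and tooth markers at 3.35 to 16.7 against 21.4 to 2146 CPM, dendritic cell markers at 1286 to 1566 against 907 to 1033 CPM and the 2 stem and progenitor markers at 9.06 to 10.6 against 7.84 to 8.92 CPM, all without overlap, and their part was not tested. In femur replicate 1 their median was 2639 UMIs per cell, against 13922 to 19048 in the other libraries.

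Outside cluster 5, 0 of 57 member tests passed (edgeR adjusted p under 0.05), with 7 of 57 at an unadjusted p under 0.05, all higher in the mandible, and 2 called by DESeq2, Klf2 in cluster 1 and Klf4 in cluster 4. Over all gene tests of these clusters, 8.68% had an unadjusted p under 0.05 and DESeq2 called 0.443%. The share of all genes that passed was 0.0163% in cluster 0, 0.0842% in cluster 1, 0.0416% in cluster 2, 0.0108% in cluster 3, 0.0245% in cluster 4, 0% in cluster 6, 0.0842% in cluster 7 and 0% in cluster 8. Egr1 had a positive log2 fold change in all 8 of these clusters, and it lay between 0.32 (SE 0.50) in cluster 8 and 1.76 (SE 0.58) in cluster 3. In cluster 1 it was 0.69 (SE 0.51), and with 1 library left out it lay between 0.23 (without mandible replicate 1) and 0.95 (without femur replicate 2), with 0.25 without femur replicate 3. All these fits reuse the same 6 libraries. Femur replicate 3 was lowest and mandible replicate 1 highest for Egr1 in each of clusters 0 to 7, so the shared sign is not a set of separate results. The connective, bone and tooth markers were higher in every mandible library in clusters 0 and 3, at 4.05 to 4.32 against 18.7 to 36.2 CPM and at 3.48 to 4.64 against 17.1 to 36.6 CPM. The same held in cluster 2 (3.04 to 7.16 against 26.9 to 83.3 CPM), in cluster 6 (0 to 3.53 against 17.1 to 66.9 CPM) and cluster 8 (0 to 11.5 against 71.5 to 285 CPM, with Dcn and Dmp1 at 0). In cluster 2 the monocyte markers were at 531 to 673 against 752 to 857 CPM. In cluster 0 the erythroid markers were at 16.2 to 23.3 against 45.7 to 191 CPM and the 4 neutrophil precursor markers at 272 to 367 against 172 to 237 CPM. The part of these markers was not tested.

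In cluster 4, 95.2% neutrophils by label, Egr1 measured 64.3, 60.4 and 38.7 CPM in femur libraries against 116, 101 and 66.3 CPM in mandible libraries. Every mandible library was higher, as for 5.90% of all genes in that cluster, and the log2 fold change was 0.85 (SE 0.23, edgeR adjusted p = 0.255). Klf4 was at 1.22, 2.83 and 1.02 CPM in femur libraries against 2.13, 4.99 and 6.67 CPM in mandible libraries, where the part of free RNA was not tested, a log2 difference of 1.55 (SE 0.45, edgeR adjusted p = 0.279). In cluster 1, Klf2 measured 310, 368 and 275 CPM in femur libraries against 428, 364 and 461 CPM in mandible libraries. The sites overlapped by femur replicate 2 and mandible replicate 2 alone, and the log2 fold change was 0.54 (SE 0.14, edgeR adjusted p = 0.157). In cluster 7 the Klf2 libraries did not overlap, at 229 to 320 CPM in femur libraries against 326 to 353 CPM in mandible libraries, as for 2.83% of all genes, a log2 difference of 0.42 (SE 0.18, edgeR adjusted p = 0.868). Several marker lists moved with the site in these clusters without overlap, and their part was not tested. The connective, bone and tooth markers were at 1.56 to 2.52 CPM in the femur against 14.0 to 17.1 CPM in cluster 4, at 4.05 to 5.28 against 25.5 to 59.8 CPM in cluster 1 and at 4.67 to 37.0 against 468 to 1248 CPM in cluster 7. In cluster 4 the 2 genes listed for T or NK cells, Cd3e and Nkg7, were at 76.1 to 90.9 against 101 to 131 CPM. These 2 genes were at most 32.4 CPM in any library of the other clusters, and which cells of cluster 4 carried them was not tested. The monocyte markers of cluster 4 were at 797 to 820 against 747 to 790 CPM. In cluster 1 the monocyte markers were at 326 to 431 against 517 to 652 CPM and the macrophage markers at 143 to 174 against 105 to 126 CPM. In cluster 7 the 3 mast cell or basophil markers were at 0 to 1.17 against 1.496 to 5.52 CPM.

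Over all cells of a library, 0 of 9 members and 0% of all genes passed (edgeR adjusted p under 0.05), with 2 of 9 at an unadjusted p under 0.05 and 1 called by DESeq2, Nr4a2, which called 305 or 1.16% of all genes there. An unadjusted p under 0.05 was found for 9.37% of all genes. Nr4a2 measured 2.05, 1.52 and 0.772 CPM in femur libraries against 2.99, 3.88 and 2.57 CPM in mandible libraries. Klf4 measured 30.1, 45.6 and 16.2 CPM in femur libraries against 54.4, 59.8 and 50.2 CPM in mandible libraries. Both had mandible libraries that were all higher, as did 4.40% of all genes. The log2 fold changes were 1.13 (SE 0.33, edgeR adjusted p = 0.396) and 0.85 (SE 0.27, edgeR adjusted p = 0.409). Both genes were highest in cluster 5, which made up 6.33% to 12.3% of the cells in the femur libraries and 11.1% to 15.1% in the mandible libraries, and the part of that share was not tested.

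Whether the effect of site differed between cluster 5 and cluster 0, the largest neutrophil cluster, was tested as the difference of the 2 effects within each library (limma). None of the 8 members tested passed, and 0% of 11741 genes did. An unadjusted p under 0.05 was found for 1 of the 8 and for 10.8% of all genes. The difference was -0.91 (SE 0.19, limma adjusted p = 0.303) on the log2 scale for Egr3, -0.51 (SE 0.28) for Nr4a1 and -0.20 (SE 0.23) for Egr1. Without femur replicate 2 the difference was 0.086 for Egr1, with the other sign, and -0.29 for Nr4a1.

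The wider pathway in cluster 5 was described by 7 lists, and in each list 0 genes passed (edgeR adjusted p under 0.05) and 0 passed with DESeq2. Among the 22 immediate early partners, 14 were higher and 8 lower in the mandible, with a median log2 fold change of 0.07 against -0.01 over all genes, and 2 had an unadjusted p under 0.05, as did 7.11% of all genes. Those were Fosl1, an AP-1 subunit, at 4.49 ± 1.29 CPM (SD, n = 3) in femur libraries against 10.7 ± 3.07 CPM in mandible libraries (log2 fold change 1.17, SE 0.34), and Ier2 at 279 ± 30.9 and 366 ± 42.3 CPM (0.35, SE 0.15). Ier3 (0.64, SE 0.32) and Gadd45b (-0.31, SE 0.17) followed. In the list of 14 Egr cofactors and Nr4a partners, 13 were tested, 4 were higher and 9 lower, and the median was -0.09. Creb1, which encodes CREB, was at -0.13 (SE 0.10), and Nab2, a corepressor of Egr proteins, at -0.37 (SE 0.32). Of 14 other Klf genes, 11 were tested, 7 were higher, and the median was 0.09, with Klf3 at -0.18 (SE 0.14) and Klf10 at 0.16 (SE 0.21).

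Heat shock genes formed another list. Of 12 genes, 4 were higher and 8 lower in the mandible, with a median of -0.04 against -0.01 over all genes and 2 at an unadjusted p under 0.05 (7.11% of all genes). Hspa1b measured 140, 54.6 and 167 CPM in femur libraries against 33.6, 42.0 and 5.44 CPM in mandible libraries (log2 fold change -2.22, SE 0.71, edgeR adjusted p = 0.612). Hspa1a, its near-identical neighbour with which it can share reads, differed by -1.89 (SE 0.69). Mandible replicate 3 was the lowest for both.

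Genes of the monocyte subsets that depend on these factors were also listed. Of 12 genes of Ly6C-low monocytes, 11 were lower and 1 higher in the mandible, with a median of -0.37 and 2 at an unadjusted p under 0.05 (7.11% of all genes). Fcgr4, an Fc receptor, measured 111, 125 and 111 CPM in femur libraries against 105, 60.4 and 59.5 CPM in mandible libraries, a log2 difference of -0.67 (SE 0.23, edgeR adjusted p = 0.626), and Eno3 differed by -0.64 (SE 0.27). Of 10 genes of Ly6C-high monocytes, 7 were higher and 3 lower, with a median of 0.18. F13a1, a coagulation factor subunit, measured 741, 797 and 524 CPM in femur libraries against 1018, 1084 and 956 CPM in mandible libraries (0.55, SE 0.15, edgeR adjusted p = 0.606), and Ly6c2 differed by 0.35 (SE 0.15). Nr4a1, the factor tied to the Ly6C-low subset, was at -0.03 in the same sums. Of 6 genes linked to Klf2 and Klf4 in leukocytes, 3 were higher and 3 lower with a median of 0.14, and Itgb7 was at 0.28 (SE 0.16) and Cd14, the lipopolysaccharide co-receptor, at 0.39 (SE 0.23).

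Labelled monocytes were compared between the G1 and G2M phases as the authors called them. Nr4a1 measured 248.8 ± 65.3 CPM (SD, n = 6) in G1 and 48.4 ± 20.4 CPM in G2M, higher in G1 in 6 of 6 libraries and 5.14-fold by the means. Klf2 measured 500 ± 57.0 CPM in G1 and 296 ± 64.7 CPM in G2M, and Egr1 151 ± 106 and 94.8 ± 66.8 CPM, both higher in G1 in 6 of 6 libraries. The scarce Nr4a3 measured 3.46 ± 2.299 and 0.755 ± 1.14 CPM, also higher in G1 in 6 of 6 libraries. Klf4 had the opposite order, with 420 ± 78.6 CPM in G1 and 544 ± 98.4 CPM in G2M, lower in G1 in 6 of 6 libraries. Klf6 showed little difference, at 298 ± 77.6 and 297 ± 90.4 CPM. Cells called S were few, 8 to 44 per library. In them Klf4 measured 130 to 387 CPM, below its G1 level in every library, as were Nr4a1, Klf2 and Klf6. The higher Klf4 level was thus seen in G2M and not in S. The G2M cells numbered 25 to 179 per library and the phase was called from the same counts, so no test was made. These levels are shares of all UMIs and not counts per cell, and UMIs per cell were not compared between the phases. Per cell, Egr1 UMIs were higher in G2M in every library except femur replicate 1, the reverse of the order by CPM. Klf2 UMIs per cell were higher in G2M in femur replicate 1 and in every mandible library. They were higher in G1 in femur replicates 2 and 3. In mandible replicate 2 Egr1 had 777 UMIs in 442 G1 cells and 419 UMIs in 179 G2M cells. In femur replicate 1 it had 223 UMIs in 454 G1 cells and 10 UMIs in 25 G2M cells.

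**Figure D5:**
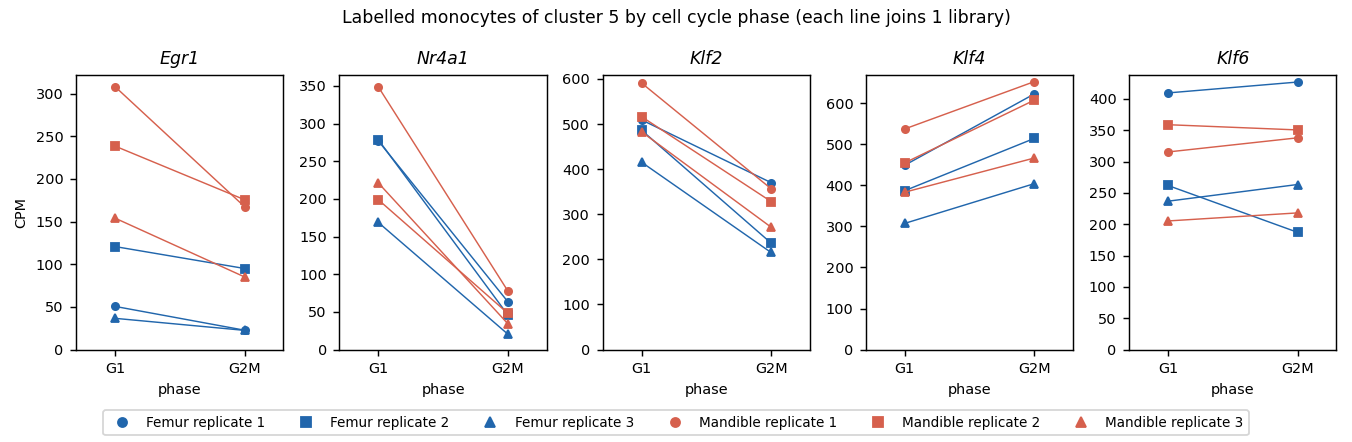
CPM of 5 genes in labelled monocytes of cluster 5 called G1 or G2M, with 1 line per library, blue for femur and red for mandible, on linear axes from 0. Nr4a1 has a mean of 248.8 CPM in G1 and 48.4 CPM in G2M, and Klf4 is the higher in G2M in every library. Cells called S are not shown.

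Detection of 2 members in the same labelled monocyte was compared with the product of their separate shares for 4 pairs, and the pairs differed. At 1000 UMIs per cell, Nr4a1 and Klf4 were found together in 7.62% of labelled monocytes on average, against 6.29% from the product of their shares, and the ratio in the 6 libraries was 1.12 to 1.37. For Nr4a1 and Klf2 the values were 8.31% and 6.88%, with ratios of 1.14 to 1.34. Egr1 and Klf4 gave ratios of 0.97 to 1.10 and Egr1 and Nr4a1 0.97 to 1.12, so these pairs lay on both sides of 1. Ratios above 1 in every library were not particular to pairs with Nr4a1. They were 1.064 to 1.165 for Klf2 and Klf4, 1.041 to 1.116 for Klf2 and Klf6 and 1.004 to 1.071 for Egr1 and Klf2. Such ratios describe the cells of each library and are given without a test, and no ratios of other genes are given beside them.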

How the data were processed

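The authors deposited raw UMI counts per gene and barcode, made with Cell Ranger on mm10 from 10x 3′ libraries. The submitters' notes name version 7.0.1, the matrix header names another, and use of strand in counting is not stated. The deposited per-cell table gives counts of UMIs and genes, the mitochondrial percent as the authors computed it, and the authors' clusters, phases and ImmGen labels. The deposited marker table holds the authors' comparisons of clusters and was not used.

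Counts of kept cells were summed per library and cluster, label or phase, where each library had at least 10 cells. Sites were compared with edgeR 4.0.16 (R 4.3.3; TMM, filterByExpr, quasi-likelihood), adjusted by Benjamini-Hochberg over all genes at 0.05. The difference between clusters used limma 3.58.1 with a prior count of 2. The study tested over cells, whereas the library was the replicate here. Shares were thinned by their expected value. Scripts were tested on simulated data. No doublet caller was run, and sums without the 5% of cells with the most UMIs were an alternative, as were DESeq2 1.42.0, RLE factors, no filter, replicate blocks and each library left out.

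Members and lists were chosen with earlier results of these data known. All 9 members are named. Of each list the genes past the threshold are named, or else the 2 with the lowest unadjusted p (4 for immediate early partners). Of like genes the 3 with the highest r are named, except for some that are not reported here.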

Additional observations from a re-analysis of the deposited data

How the results depend on the processing

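In cluster 5, 0 members were called under all 14 alternatives. In the other clusters the 0 calls became 2 with DESeq2 and 6 with no filter on low counts. They became 23 with the replicate block by library number. That block kept only the 2 pairs of libraries that share a number, so femur replicate 1 and mandible replicate 3 were left out. Its changes are thus not those of blocking alone. For the labels the 0 calls became 4 with no filter (Egr1 in monocytes, and Egr1, Nr4a1 and Klf4 in macrophages). They became 4 with the library block, all in monocytes, and 1 (Egr1 in monocytes) with the block by title number. Over all cells DESeq2 called 1 member and 305 of all genes. The cause was not tested, and these settings also moved the calls over all genes, from 0 to 9 per cluster outside cluster 5 to 0 to 275 with DESeq2, 39 to 577 with no filter and 1 to 1587 with the library block. Among the labels the calls over all genes went from 1 to 11 to 104 to 657 with no filter, 2 to 814 with the library block and 2 to 83 with the title block. In cluster 5 they went from 0 to 77 with DESeq2, 8 with no filter, 5 with the library block and 14 without mandible replicate 1. Deviations of libraries with the same title number had correlations of -0.4 to 0.181. The deviations were taken from the mean of each site, so such correlations constrain one another. They cannot settle whether a number pairs the samples. For the same library number, which 2 pairs share and whose meaning the labels do not give, the correlations were 0.00309 to 0.501. Egr1 was higher in the mandible in 8 of 8 clusters in both pairs. These pairs held mandible replicate 1 and femur replicate 3, the highest and the lowest Egr1 library in 8 of 8 clusters. Their order was fixed by that standing and is no separate result.

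Of 293 log2 fold changes recomputed, 21 had the other sign. In cluster 5 the replicate block by library number gave 0.39 for Egr3, 0.18 for Nr4a1, 0.93 for Nr4a3 and 0.24 for Klf6, cells in G1 gave -0.054 for Egr2, 0.12 for Nr4a1 and 0.022 for Klf6, and labelled monocytes gave 0.077 for Nr4a3. With 1 library left out the range was -0.58 to 0.39 for Egr2, -0.94 to 0.20 for Egr3, -0.45 to 0.17 for Nr4a1, -0.70 to 0.40 for Nr4a3, -0.065 to 0.20 for Klf2 and -0.14 to 0.13 for Klf6, with the lowest value of Egr2, Egr3, Nr4a1 and Klf2 without mandible replicate 1. Egr1, Nr4a2 and Klf4 kept their sign in cluster 5 under every alternative run. The library block, with femur replicate 1 and mandible replicate 3 left out, moved them to 1.24, 1.72 and 0.59. It moved Egr2 there to 0.83, and none of them was called. Egr1 in cluster 1 moved from 0.69 to 1.42 with that block and was called. Members whose shares of cells did not overlap numbered 3 as counted (Egr1, Nr4a2 and Klf4, against 8.62% of all genes) in place of 1 (9.26%). With a library left out they numbered 1 to 3. Overlap is rarer with fewer libraries, and the share over all genes was not taken there, so that count cannot be read as a result. The difference in share was 0.839 percentage points as counted and 0.0586 at 2000 UMIs for Egr2, and 0.126 as counted for Egr3. With a library left out it was -0.146 to 0.0871 for Egr2, -1.20 to 3.88 for Nr4a1, -0.0462 to 0.188 for Nr4a3 and -0.410 to 3.26 for Klf6. Egr2, Egr3 and Nr4a3 were found in few cells of cluster 5, and labelled macrophages and dendritic cells were few, which limits these values. The parts of depth and of low expression in the scarcity of the 3 genes were not tested.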
